A study of Homo sapiens with 38 samples.

Results

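The comparison is of untreated human lymphoma lines with each other, by RNA sequencing of cells kept in the solvent DMSO alone. It uses 16 of the 38 samples of the series, of which 37 have a column of counts. The members are the DMSO libraries of the established diffuse large B-cell lymphoma lines OCILY1, PFEIFFER, SUDHL4, TOLEDO and WSUDLCL2, with 3 libraries a line, and the single DMSO library of SUDHL6. Each of the 5 lines has a library after 6 h and a pair after 14 days, titled DMSOP and DMSOV, and the labels do not say what the final letters stand for. SUDHL6 has a 6 h library and was set beside the others without a test. The study itself compared the histone deacetylase (HDAC) inhibitors pracinostat and vorinostat with DMSO in these lines. The labels give no genotype and no transgene. Each line is 1 tumour's descendant, and whether its 3 libraries came from separate cultures is not stated, so p-values measure only the spread between these libraries, which may be technical. Values are CPM, the counts of a gene scaled to a common library size after TMM adjustment, and the 3 values of a line are given as 6 h, DMSOP and DMSOV.

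Diffuse large B-cell lymphoma is a cancer of mature B cells. Many such tumours keep the programme of the germinal centre, where B cells mutate and select their antigen receptor under the repressor BCL6, while others resemble B cells leaving it, with the transcription factor IRF4 and NF-kB activity. Plasma cell fate is driven by PRDM1. B cells present antigen on MHC class II molecules, whose genes are switched on together by the coactivator CIITA, and HDACs are the enzymes that the study's drugs block.

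Library totals ran from 3286221 to 8919622 counts. SUDHL4 had the lowest, 3286221, 4486373 and 4569119, so in this line low depth and line cannot be told apart. A count of 0 allowed up to 3 counts, or 0.342 to 0.957 CPM depending on the library, for counting error only. Mitochondrially encoded genes took 6.17 to 12.0% of the counts, with the lowest shares in PFEIFFER, at 6.17 to 6.76%. Libraries of a line correlated at 0.968 to 0.993 over 15 pairs (Pearson r of log2 CPM over genes), and libraries of different lines at 0.722 to 0.912 over 105 pairs. No library pair of a line held identical values. A low-level PFEIFFER signal stood in the SUDHL6 library. All 30 genes at 50 CPM or more in PFEIFFER and under 0.5 CPM in the 12 libraries of the other tested lines had counts in the SUDHL6 DMSO library, at a median of 0.976% of the PFEIFFER level. The pooled share was 0.999% there and 0.0994% in the SUDHL6 pracinostat library. It was at most 0.0629% in the 12 others, but low values there were a condition of the choice, so that share is no comparison. With the library's own line replaced by SUDHL6 in the choice, the share was at most 0.27%, over 7 genes in TOLEDO at 6 h. The source of this signal was not tested, and SUDHL6 values near 1% of PFEIFFER's are not read as expression below.

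**Figure D1:**
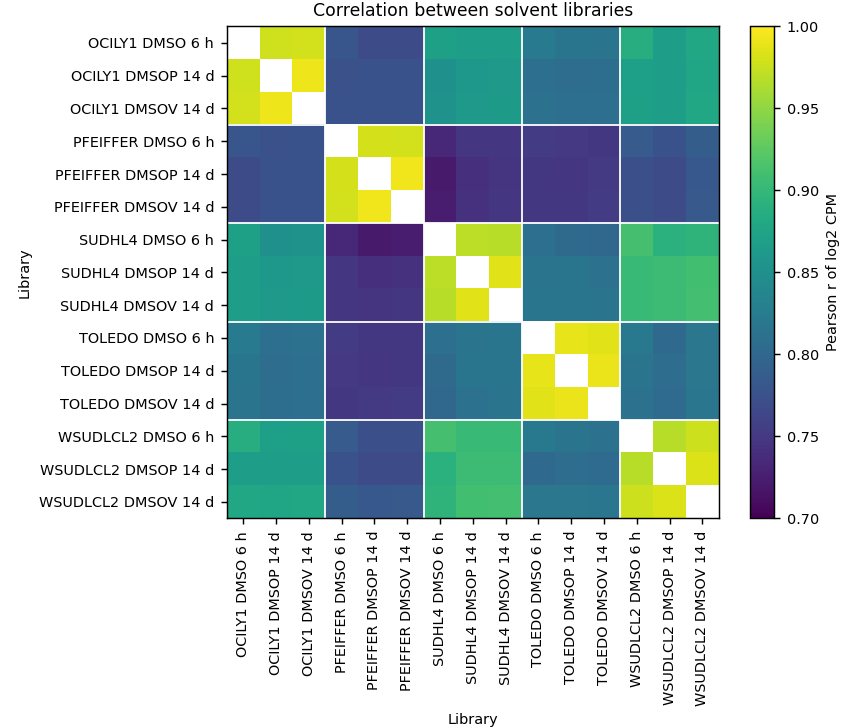
Pearson correlation of log2 CPM between the 15 solvent libraries of the 5 tested lines, grouped by line; the diagonal is blank. The 3 libraries of each line form a block at 0.968 or more, SUDHL4 and WSUDLCL2 are the most alike lines at 0.892 to 0.912, and PFEIFFER lies at or below 0.788 with every other line.

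The lines differed in most of the genes that could be measured. Of 14530 genes tested, 13124, or 90.3%, differed between lines at an adjusted p under 0.05 (line factor, edgeR's quasi-likelihood F test with the solvent set as a block), and 10124, or 69.7%, also had line means at least 2-fold apart. The line accounted for a median of 84.8% of a gene's variance in log2 CPM, the solvent set for 3.84% and the remainder for 8.66%. The set factor, which holds the 6 h against 14 day difference, was called for 1781 genes, or 12.3%.

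Each line was then set against the mean of the other 4 lines, on the log2 scale, and a gene was called past a 2-fold limit (edgeR's test against a limit, adjusted p under 0.05). PFEIFFER stood furthest apart, with 2546 genes higher and 1029 lower. TOLEDO had 1634 higher and 1296 lower, OCILY1 1133 and 748, WSUDLCL2 1080 and 524, and SUDHL4 1039 and 862. With limma on the deposited normalized values, the share of higher genes among the calls was 44% in OCILY1, 36.3% in SUDHL4, 47.0% in WSUDLCL2, 49.2% in TOLEDO and 67.0% in PFEIFFER, against 60.2%, 54.7%, 67.3%, 55.8% and 71.2% in the fit of the counts, so that lower genes were the majority in 4 of the 5 lines. A line far below the rest lifts the others in this contrast, so the genes that set 1 line apart were counted as well. All 3 libraries lay above the 12 others for 1708 of the genes higher in PFEIFFER (11.8% of genes tested), 1010 in TOLEDO (6.95%), 436 in OCILY1 (3.00%), 352 in SUDHL4 (2.42%) and 310 in WSUDLCL2 (2.13%). They lay below the 12 others for 637 genes in PFEIFFER (4.38%), 805 in TOLEDO (5.54%), 358 in OCILY1 (2.46%), 486 in SUDHL4 (3.34%) and 197 in WSUDLCL2 (1.36%). By pairs of lines, SUDHL4 and WSUDLCL2 differed past 2-fold in the fewest genes, 1396 or 9.61%, and PFEIFFER and TOLEDO in the most, 4255 or 29.3%.

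**Figure D2:**
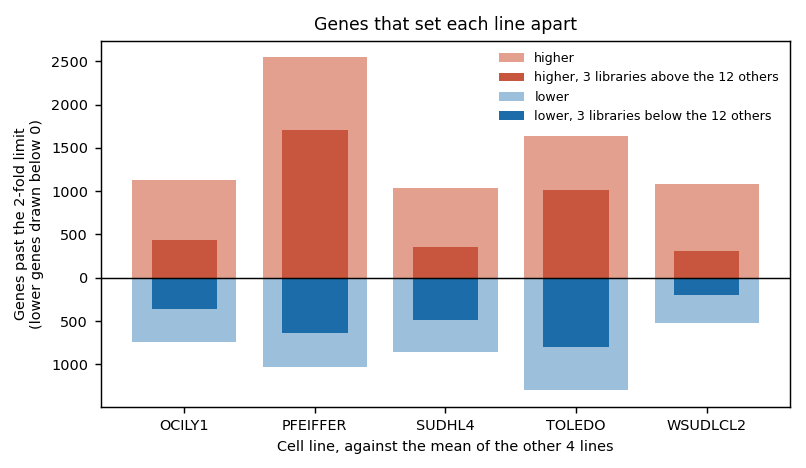
Genes past the 2-fold limit in each line against the mean of the other 4 lines, with higher genes above 0 and lower genes below it; the narrow bars are the genes whose 3 libraries all lie outside the 12 libraries of the other lines. PFEIFFER has the tallest bar at 2546 higher genes, and TOLEDO the deepest at 1296 lower genes.

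The spread between the lines differed from gene list to gene list. The median distance between the highest and the lowest line mean was 1.54 on the log2 scale over all genes tested. It was 7.99 over 12 immunoglobulin constant genes, 7.19 over 16 genes of MHC class II, 6.45 over 23 germinal-centre genes and 4.65 over 22 genes of activated B cells. It was 0.64 over 28 cytosolic ribosomal proteins, 0.89 over 15 mitochondrially encoded genes, 0.96 over 25 G2/M genes and 0.98 over 13 control genes. Lists outside the B-cell genes were wide too. T-cell, cancer-testis, and stromal and endothelial genes, with 5 tested in each list, had 6.25, 5.75 and 4.71. The 22 genes of co-stimulation, adhesion and homing had 4.68. The lists were chosen with earlier results known, and a gene high in a single line can pass the count filter. Dependence on role was not tested.

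**Figure D3:**
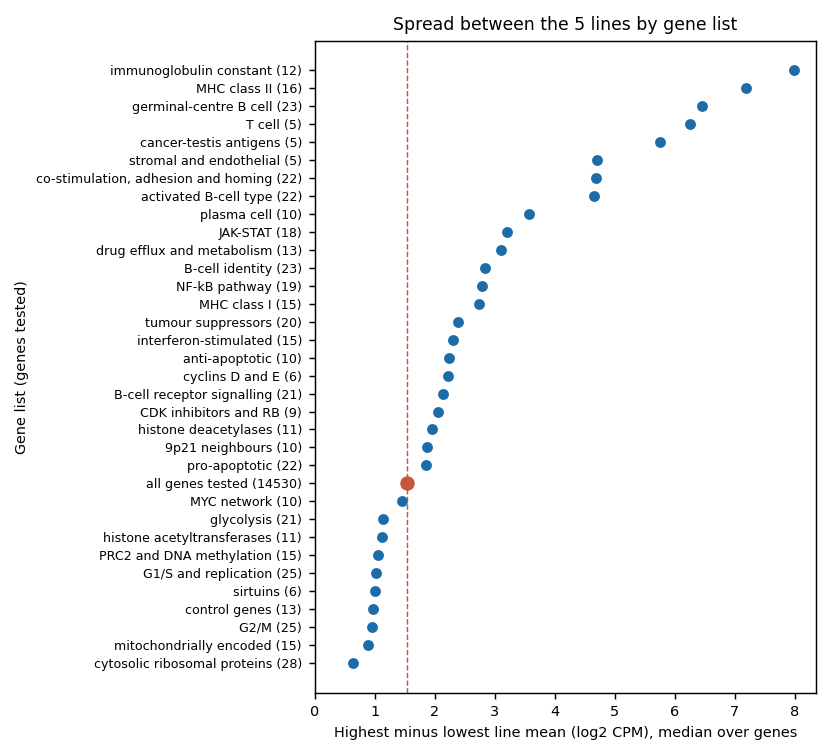
Median over each gene list of the distance between the highest and the lowest line mean (log2 CPM with a prior count of 2), for the lists shown, each with 5 or more genes tested; the dashed line and large point mark all genes tested, at 1.54. Immunoglobulin, MHC class II and germinal-centre lists lie at the top, and ribosomal protein and mitochondrial lists at the bottom.

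Of the 5 tested lines OCILY1 had the highest levels of unswitched immunoglobulin heavy chains, and SUDHL6 had more of both. IGHM, the constant region of IgM (chromosome 14, 105851705 to 105856218, GRCh38), had 1973, 1567 and 1824 CPM in OCILY1, against 0 to 0.319 CPM in the 12 libraries of the other 4 lines and 2018 CPM in SUDHL6. All 3 OCILY1 libraries stood far above those 12 (log2 difference 14.4, SE 0.17, adjusted p = 3.04e-20 against the 2-fold limit). IGHD, the heavy chain of IgD, followed with 72.6, 45.4 and 50.7 CPM in OCILY1 against 1 count in the 12 others, and SUDHL6 had 116 CPM. KCNJ16, a potassium channel subunit, averaged 49.6 CPM in OCILY1 and had no count in the 12 others, which makes it at least 99-fold higher. AGR2, a protein disulphide isomerase of secretory cells, averaged 46.1 CPM there, again with no count elsewhere, and was at least 91.9-fold higher. CA8, a carbonic anhydrase-related protein, averaged 49.3 CPM in OCILY1 against 1 count in the 12 others, and stood at 27.0 CPM in SUDHL6. With DESeq2, KCNJ16, AGR2, IGHD and CA8 missed the 2-fold limit, at adjusted p of 0.0772 to 0.0915. In the other direction GYPC, a membrane glycoprotein of red cells, had no count in OCILY1 and averaged 48.5 CPM over the other lines, at least 115-fold more. It was also low in SUDHL6, at 0.114 CPM, and averaged 4.99 CPM in PFEIFFER. ADD2, a membrane skeleton protein, and TRIO, an exchange factor for small GTPases, also had no count in OCILY1, at least 177-fold and 107-fold below the other lines. Those lines were themselves uneven, as ADD2 averaged 215 CPM in SUDHL4 and 0.829 CPM in WSUDLCL2, and TRIO 98.1 CPM in TOLEDO and 2.53 CPM in WSUDLCL2.

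PFEIFFER carried transcripts known from other lineages at high level. CCL17, a chemokine that attracts T cells, had 1748, 1088 and 1042 CPM in PFEIFFER, against 0 to 0.158 CPM in the 12 other libraries (log2 difference 14.8, SE 0.17). CD8A, the T-cell coreceptor chain (chromosome 2, 86784610 to 86808396), had 1207, 1085 and 1114 CPM in PFEIFFER, against 0 to 0.38 CPM in the 12 others (log2 difference 14.1, SE 0.19). No PFEIFFER library came near the other lines for either gene. FAM189A1 averaged 357 ± 84.9 CPM (SD, n = 3) in PFEIFFER and WNT7B, a secreted signal, 145 ± 32.1 CPM, with 2 counts and 1 count in the 12 others. SSX1, a cancer-testis gene with near-identical relatives, averaged 144 ± 14.2 CPM and had no count in the 12 others, at least 283-fold higher. MEF2C, a transcription factor of muscle and lymphoid cells, averaged 159.6 CPM over the other lines, but 12.6 CPM in TOLEDO, with 3.99 CPM in SUDHL6. It had no count in PFEIFFER, at least 408-fold below the other lines. RGS13, a regulator of G-protein signalling in germinal-centre B cells, had none either, at least 704-fold below the other lines, though TOLEDO too was near 0 at 1.33, 1.07 and 0.79 CPM. HDAC9 completed the set, at least 104-fold lower in PFEIFFER.

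Among the genes furthest above the other lines in SUDHL4, THY1, a surface glycoprotein of stromal cells, neurons and some lymphoid cells, had 87.1, 62.0 and 56.5 CPM in SUDHL4, and averaged 0.483 CPM in WSUDLCL2 with no count in OCILY1, PFEIFFER or TOLEDO. PDZRN4, a PDZ-domain protein, averaged 20.3 CPM in SUDHL4 and had no count elsewhere, at least 49.1-fold higher, but missed the limit with DESeq2 (adjusted p = 0.155). The matrix proteoglycan DCN averaged 64.7 CPM in SUDHL4, 3.11 CPM in WSUDLCL2 and 0 in the others. LILRB1, an inhibitory receptor for MHC class I, averaged 101 CPM in SUDHL4 and 4.03 CPM in PFEIFFER, the next highest line. MUC19, a gel-forming mucin, had 25.2, 41.1 and 65.8 CPM in SUDHL4 and at most 1.07 CPM in the 12 others. YBX3, a cold-shock domain protein that binds RNA and DNA, averaged 173 CPM over the other lines and was low in SUDHL6, at 2.39 CPM. It had no count in SUDHL4, at least 225-fold below the other lines. CAMK4, a calcium-dependent kinase, had no count either, at least 224-fold below the other lines, and among these ranged from 7.24 CPM in TOLEDO to 513 CPM in PFEIFFER. PHGDH, the first enzyme of serine synthesis, had 1 count in the SUDHL4 libraries against a mean of 203 CPM over the others.

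TOLEDO was marked by light chain genes on both sides. IGLL1, the surrogate light chain of precursor B cells, had 229, 258 and 229 CPM in TOLEDO and 4 counts in the 12 others together, and it shares sequence with the lambda constant genes. BEST3, an anion channel, averaged 334 CPM in TOLEDO, BAHCC1, a chromatin reader, 125 CPM and NT5E, the ecto-enzyme CD73, 78.3 CPM. These had 2, 5 and 4 counts in the other lines, in that order. The non-coding RNA LINC01781 averaged 34.9 CPM and had no count elsewhere, at least 70.4-fold higher, but missed the limit with DESeq2 (adjusted p = 0.0688). IGKC, the kappa light chain constant region, had no count in TOLEDO and averaged 97.5 CPM over the other lines, at least 222-fold more. PTK2, the focal adhesion kinase, had 1 count in TOLEDO against a mean of 173 CPM over the others. The transcript AC023590.1 had no count in TOLEDO, at least 115-fold below the other lines.

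WSUDLCL2 had the fewest genes that set it apart, with LMO2, described below, among the 5 named. TDRD1, a germline protein of the piRNA pathway, had 77.7, 52.4 and 69.7 CPM in WSUDLCL2, against 1 count in the 12 others, and missed the limit with DESeq2 (adjusted p = 0.0762). PCK1, the key enzyme of gluconeogenesis, averaged 29.5 ± 13.8 CPM and the membrane protein MYADM 25.8 ± 10 CPM, with 3 and 5 counts elsewhere. NUDT11, a diphosphoinositol phosphatase, had 46.7, 35.6 and 49.8 CPM in WSUDLCL2 and averaged 18.2 CPM in SUDHL4, with none in the others. GTSF1, a piRNA pathway factor, averaged 81.2 CPM over the other lines and was low in SUDHL6, at 1.94 CPM. It had no count in WSUDLCL2, at least 200-fold below the other lines. ABCC5, an exporter of cyclic nucleotides and drugs, and PODXL2, a sialomucin, had none either, at least 156-fold and 97.7-fold below the other lines.

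All 6 lines carried the defining B-cell markers. MS4A1, which encodes CD20, was lowest in TOLEDO at 409, 474 and 459.8 CPM, against 664 to 3303 CPM in the other 12 libraries, and highest on average in WSUDLCL2 at 2782 ± 518 CPM, and SUDHL6 had 3399 CPM. CD79A, a signalling chain of the receptor, had 177, 60.2 and 70.1 CPM in PFEIFFER, below all of the 12 others at 423 to 1184 CPM. Its partner CD79B was highest on average in PFEIFFER, at 989.7 ± 102 CPM, and averaged 347 to 734 CPM in the other lines. Of 23 B-cell identity genes tested, 3 were higher and 9 lower past the limit in PFEIFFER, where 17.5% of all genes were higher and 7.08% lower. BANK1, a scaffold of receptor signalling, had 0.12 to 0.137 CPM in PFEIFFER and averaged 75.6 to 218 CPM in the other lines. CD24, a surface glycoprotein, averaged 8.84 CPM in SUDHL4 and 2.61 CPM in WSUDLCL2, and 214 to 739 CPM in the other 3 lines. CD27, a receptor of memory B cells, had 0.148, 0.533 and 0 CPM in TOLEDO against 34.1 to 105 CPM in the 12 others. Among 21 genes of B-cell receptor signalling, 19 had line means 2-fold apart, against 69.7% of all genes. FCGR2B, the inhibitory Fc receptor, had no count in PFEIFFER and averaged 102 CPM in OCILY1. VAV2, an exchange factor, averaged 1.06 CPM in OCILY1 and 100.3 CPM in SUDHL4.

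The germinal-centre genes split the lines. Past the 2-fold limit 14 of 23 were higher and 0 lower in SUDHL4, where 7.15% and 5.93% of all genes were, and 14 were higher and 1 lower in WSUDLCL2, against 7.43% and 3.61% of all genes. In TOLEDO 4 were higher and 10 lower, against 11.2% and 8.92% of all genes. In PFEIFFER 4 were higher and 9 lower, against 17.5% and 7.08% of all genes, so its higher count is near its share. In OCILY1 6 were higher and 5 lower, against 7.80% and 5.15% of all genes. BCL6 (chromosome 3, 187721377 to 187745727) had 6.51, 5.73 and 6.0 CPM in TOLEDO, against 419 to 720.1 CPM in the 12 others (log2 difference -6.42, SE 0.21). TOLEDO alone was low, and the other 4 lines overlapped, yet each of these 4 was called higher past the limit. MME, the surface peptidase CD10, was low in another line, at 0.546, 0.12 and 0.811 CPM in PFEIFFER against 229 to 475 CPM in the 12 others (log2 difference -9.38, SE 0.25). TOLEDO thus held the highest MME mean, 419.9 ± 48.9 CPM, beside the lowest BCL6. LMO2, a transcription cofactor, had 322, 202 and 176 CPM in WSUDLCL2, against 0 to 9.25 CPM in the 12 others (log2 difference 8.67, SE 0.19), and SUDHL6 lay between at 35.1 CPM. SUDHL4 was called higher for LMO2 at a mean of 5.56 CPM, against 58.7 CPM over the other lines. A line near 0 lowers the log2 mean of the others. The counts of higher genes above are therefore not counts of high levels. RGS13 was high in OCILY1, SUDHL4 and WSUDLCL2, at 148 to 823 CPM, and in SUDHL6 at 411 CPM. SERPINA9, a serpin of germinal-centre B cells, averaged 116 CPM in SUDHL4, 86.0 CPM in WSUDLCL2 and 2.21 CPM in OCILY1, and had no count in PFEIFFER or TOLEDO.

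Genes of activated B cells were most often higher in PFEIFFER and TOLEDO. Of 22, 13 were higher and 2 lower in PFEIFFER, 11 and 4 in TOLEDO, 4 and 5 in WSUDLCL2, 2 and 8 in OCILY1, and 1 and 8 in SUDHL4. Over all genes these shares were 17.5% and 7.08% in PFEIFFER, 11.2% and 8.92% in TOLEDO, 7.43% and 3.61% in WSUDLCL2, 7.80% and 5.15% in OCILY1, and 7.15% and 5.93% in SUDHL4. IRF4 (chromosome 6, 391739 to 411447) had 549.8, 464 and 459.8 CPM in PFEIFFER and 627, 584 and 568 CPM in TOLEDO, against 0 to 15.9 CPM in the 9 libraries of OCILY1, SUDHL4 and WSUDLCL2. SUDHL6 stood between both sets at 52.0 CPM. PRDM1 followed the same order at a far lower level, at 3.51 to 6.36 CPM in PFEIFFER and TOLEDO and at most 0.475 CPM in the other 3 lines. CD44, a hyaluronan receptor, averaged 220.1 ± 50.9 CPM in PFEIFFER and 186 ± 23 CPM in TOLEDO, which overlapped, and 0.18 to 3.52 CPM in the other 3 lines. PFEIFFER and TOLEDO parted at BCL2A1, an anti-apoptotic target of NF-kB, which had 382, 325 and 310.4 CPM in PFEIFFER and 0 to 0.158 CPM in TOLEDO.

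**Figure D4:**
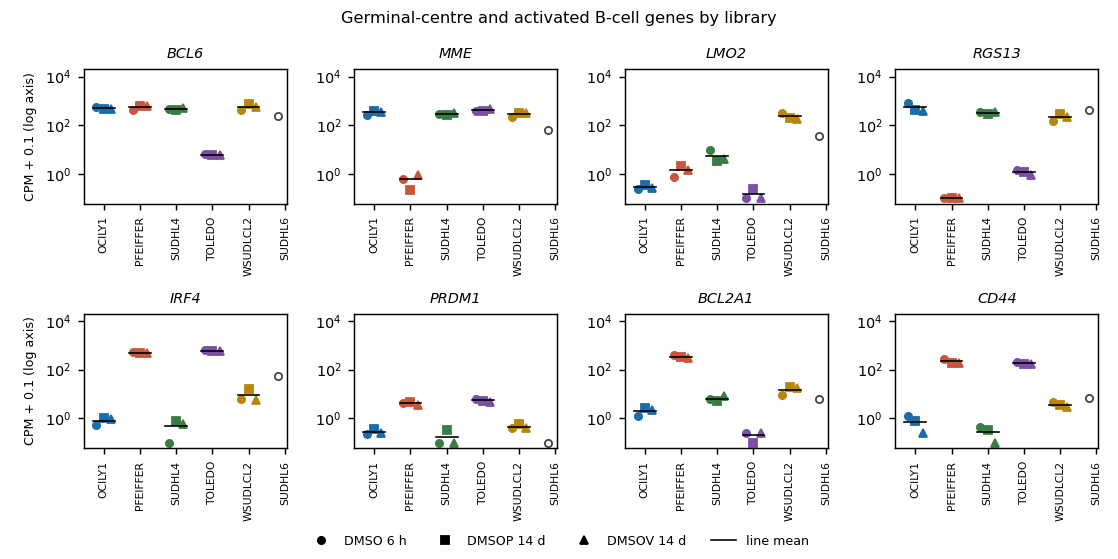
CPM + 0.1 on a log axis for 4 germinal-centre genes (upper row) and 4 genes of activated B cells (lower row) in the 16 solvent libraries; symbols give the solvent set, bars the mean of a line, and open circles the single SUDHL6 library. TOLEDO is low for BCL6, PFEIFFER for MME, WSUDLCL2 is high for LMO2, and IRF4, PRDM1 and CD44 are high in PFEIFFER and TOLEDO.

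The immunoglobulin constant genes varied most, all 12 tested having line means 2-fold apart, against 69.7% of all genes. These genes are near-identical within a class, so reads may be split between copies and values for a single subclass are uncertain. OCILY1 had 9 higher and 1 lower past the limit, PFEIFFER 5 and 1, WSUDLCL2 3 and 1, SUDHL4 2 and 4, and TOLEDO 1 and 5. Over all genes the shares were 7.80% and 5.15% in OCILY1, 17.5% and 7.08% in PFEIFFER, and 7.43% and 3.61% in WSUDLCL2. They were 7.15% and 5.93% in SUDHL4 and 11.2% and 8.92% in TOLEDO. The 1 higher in TOLEDO and the 1 lower in PFEIFFER are near those shares. IGHG4 averaged 525 CPM in PFEIFFER, 788 CPM in SUDHL4 and 633 CPM in WSUDLCL2, and 0.264 CPM in OCILY1 and 3.1 CPM in TOLEDO. IGHG1 varied less, from 58.6 to 188 CPM between line means. IGHE, the heavy chain of IgE, averaged 367 CPM in PFEIFFER, 48.7 CPM in OCILY1 and at most 6.61 CPM elsewhere. For the light chains, IGKC was highest in PFEIFFER at 185, 257 and 291 CPM, and ranged from 12.3 to 81.3 CPM in OCILY1, SUDHL4 and WSUDLCL2. IGLC2, a lambda constant gene, had 359, 296 and 177 CPM in WSUDLCL2, against 0.316 to 36 CPM in the 12 others. IGLC7 had 653, 593 and 533 CPM in TOLEDO, against 0 to 11.8 CPM in the 12 others. OCILY1 was called higher for IGLC2 at a mean of 31.1 CPM, against 73.8 CPM over the other lines. For IGKC it was called higher at 58.25 CPM against 82.9 CPM. A line near 0 lowers the log2 mean of the others, so the counts of higher genes are not counts of high levels.

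The MHC class II genes were lowest in OCILY1. Of 16 tested, 0 were higher and 12 lower there, 12 were higher and 0 lower in PFEIFFER, 8 and 0 in SUDHL4, 5 and 0 in WSUDLCL2, and 3 and 1 in TOLEDO. Of all genes 5.15% were lower in OCILY1, and 17.5%, 7.15%, 7.43% and 11.2% were higher in PFEIFFER, SUDHL4, WSUDLCL2 and TOLEDO. HLA-DRA, the alpha chain of DR molecules (chromosome 6, 32439842 to 32445046), had 1.62, 2.54 and 1.74 CPM in OCILY1. It had 5178, 4248 and 4016 CPM in PFEIFFER and 713 to 1358 CPM in SUDHL4, TOLEDO and WSUDLCL2. OCILY1 lay below the 12 others (log2 difference -9.54, SE 0.24), PFEIFFER lay above all the rest, and the other 3 lines overlapped. SUDHL4, TOLEDO and WSUDLCL2 were still called higher, at means of 916, 1060 and 1142 CPM against 1671, 1635 and 1615 CPM over the lines other than each. OCILY1 near 0 lowers the log2 mean that each line is set against. The counts of higher genes in these 3 lines are therefore not counts of raised levels. HLA-DPA1, the alpha chain of DP molecules, kept this order, at 0.507 to 1.48 CPM in OCILY1, 1739 to 2639 CPM in PFEIFFER and 367 to 747 CPM in the other 3 lines. CD74, the invariant chain encoded on chromosome 5, was lower in OCILY1 but far from absent, at 808, 856 and 836 CPM against 1964 to 7561 CPM in the 12 others (log2 difference -2.07, SE 0.12). CIITA (chromosome 16, 10866222 to 10943021) had 32.1, 14.8 and 14.1 CPM in OCILY1, 753, 615 and 627 CPM in PFEIFFER, 216 to 256 CPM in TOLEDO, 89.6 to 163 CPM in WSUDLCL2 and 44.7 to 65.9 CPM in SUDHL4. SUDHL4 was thus next lowest for CIITA, while its HLA-DRA mean of 916 ± 279 CPM did not stand apart from TOLEDO's 1060 ± 58.5 CPM. Of the factors that bind beside CIITA, RFX5 averaged 127 CPM in OCILY1 and 125 to 230.1 CPM in the other lines, and RFXANK 41.6 CPM in OCILY1 and 22.2 to 48.0 CPM in the others. HLA genes vary between people, and a line whose alleles differ from the reference may lose reads, which was not tested.

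The promoters of these genes are shown because class II genes share the X box, bound by RFX, and the Y box, bound by NF-Y. RefSeq promoters (GRCh38.p14, from 250 bases before to 50 after the start of the gene) were found for 14 of the 16 list genes. The Y box letters CTGATTGG, searched on both strands, stood in 5 of these 14, in HLA-DRB1, HLA-DRB5, HLA-DQB1, HLA-DMA and RFX5, and in 4.16% of all 27305 promoters of that length. For the X box a fixed pattern of 14 letters, with some positions left free, was searched the same way. This pattern stood in 3 of the 14, in HLA-DQB1, HLA-DMA and HLA-DMB, and in 0.0732% of all promoters. An X box that departs from the pattern at a fixed position was not counted. A promoter without a match may therefore still hold an X box. The motifs do not overlap in the promoters printed. Capitals mark them, and each sequence runs 5′ to 3′ on the strand of the gene.
HLA-DRB1, chr6:32589799-32590098, minus strand: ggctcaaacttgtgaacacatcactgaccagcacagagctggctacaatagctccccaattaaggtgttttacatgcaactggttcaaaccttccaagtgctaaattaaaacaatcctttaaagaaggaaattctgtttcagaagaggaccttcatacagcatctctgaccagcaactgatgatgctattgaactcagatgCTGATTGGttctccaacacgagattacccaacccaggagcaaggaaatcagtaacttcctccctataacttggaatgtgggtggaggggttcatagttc
HLA-DQB1, chr6:32666608-32666907, minus strand: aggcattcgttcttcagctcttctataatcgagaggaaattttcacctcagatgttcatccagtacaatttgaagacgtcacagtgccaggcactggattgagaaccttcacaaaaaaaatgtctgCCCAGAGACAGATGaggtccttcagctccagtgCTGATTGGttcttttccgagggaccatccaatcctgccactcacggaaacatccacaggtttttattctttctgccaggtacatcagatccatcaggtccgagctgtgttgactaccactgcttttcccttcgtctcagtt
HLA-DMA, chr6:32953048-32953347, minus strand: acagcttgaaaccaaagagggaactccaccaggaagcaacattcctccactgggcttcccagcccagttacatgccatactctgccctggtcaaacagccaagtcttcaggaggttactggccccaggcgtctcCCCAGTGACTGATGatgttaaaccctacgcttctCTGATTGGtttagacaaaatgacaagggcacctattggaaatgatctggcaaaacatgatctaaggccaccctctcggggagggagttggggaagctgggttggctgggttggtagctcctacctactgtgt
HLA-DMB, chr6:32940979-32941278, minus strand: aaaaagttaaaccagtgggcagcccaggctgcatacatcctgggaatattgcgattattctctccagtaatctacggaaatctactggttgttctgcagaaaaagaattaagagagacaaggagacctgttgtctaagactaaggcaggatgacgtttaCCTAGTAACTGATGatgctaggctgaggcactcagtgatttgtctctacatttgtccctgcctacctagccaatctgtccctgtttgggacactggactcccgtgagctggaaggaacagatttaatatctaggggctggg
The genes with these promoters did not share 1 level. HLA-DRB1 had 0.675, 0.761 and 1.1 CPM in OCILY1 against 149 to 1830 CPM in the 12 others, and HLA-DQB1 had 0.405, 0.38 and 0.158 CPM against 12.6 to 454 CPM. HLA-DMA and HLA-DMB, the peptide loader of class II, kept 7.83 to 23.5 CPM and 6.16 to 10.2 CPM in OCILY1, against 76.7 to 433 CPM and 34.2 to 284 CPM in the 12 others. A match of letters describes these windows and is not a measured binding site.

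**Figure D5:**
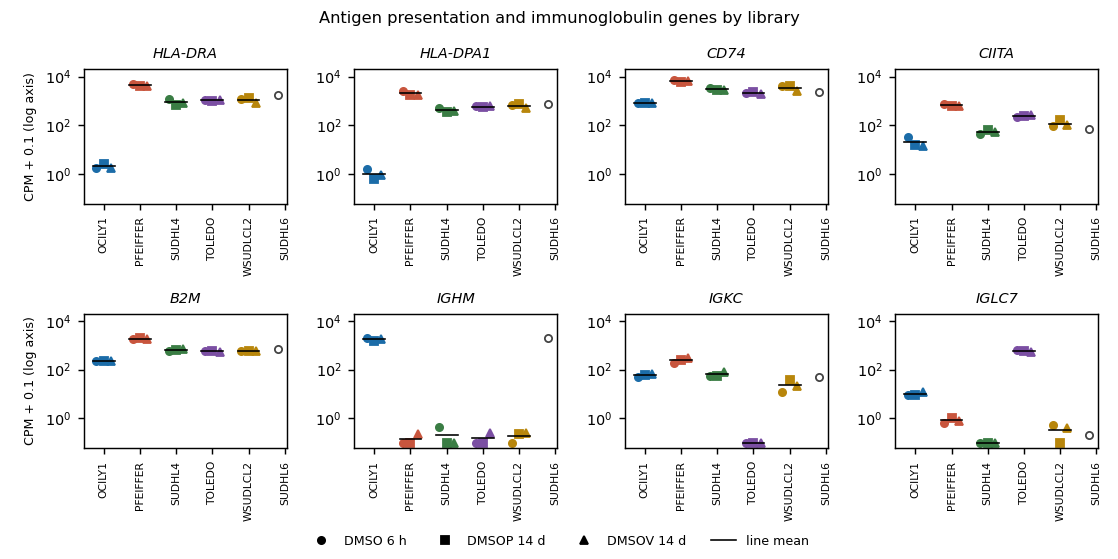
CPM + 0.1 on a log axis for 5 genes of antigen presentation and 3 immunoglobulin constant genes in the 16 solvent libraries; symbols give the solvent set, bars the mean of a line, and open circles the single SUDHL6 library. OCILY1 is lowest for HLA-DRA, HLA-DPA1, CD74, CIITA and B2M and highest of the 5 tested lines for IGHM, and TOLEDO is at 0 for IGKC and highest for IGLC7.

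MHC class I genes had a smaller median distance between line means, 2.73. Of 15, 11 were higher and 0 lower in PFEIFFER, 4 and 0 in TOLEDO, while 4 were lower in OCILY1, 5 in SUDHL4 and 2 in WSUDLCL2 with 0 higher in each, where 17.5% and 11.2% of all genes were higher in PFEIFFER and TOLEDO, and 5.15%, 5.93% and 3.61% lower in OCILY1, SUDHL4 and WSUDLCL2. B2M, the shared light chain, had 221, 231 and 216 CPM in OCILY1 and 1808, 1998 and 1805 CPM in PFEIFFER, with 547 to 694 CPM in the other 3 lines, which overlapped. HLA-B averaged 16.9 CPM in OCILY1 and 41.4 CPM in SUDHL4, had 77.0, 113 and 80.2 CPM in WSUDLCL2, and averaged 340.3 CPM in TOLEDO and 1242 CPM in PFEIFFER, and no neighbours in this order overlapped. HLA-F had no count in SUDHL4 and averaged 36.4 CPM in PFEIFFER. NLRC5, the class I coactivator, averaged 63.5 CPM in PFEIFFER, 35.6 CPM in TOLEDO, 12.3 CPM in SUDHL4, 3.94 CPM in WSUDLCL2 and 1.28 CPM in OCILY1.

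Among the tumour suppressor genes, RB1 was lowest in OCILY1 and CD58 in SUDHL4. RB1, the cell cycle brake, averaged 11.1 ± 1.1 CPM in OCILY1, 64.9 ± 3.67 CPM in WSUDLCL2 and 227 to 291 CPM in the other 3 lines, which overlapped. CD58, a ligand by which T cells bind target cells, had no count in SUDHL4 and averaged 0.965 to 11.7 CPM elsewhere. CDKN2A, the p16 and p14ARF locus, was highest in OCILY1 at 78.1 ± 9.35 CPM and averaged 18.5 to 38.1 CPM in the others. CDKN2B, at 0.844 to 1.35 CPM on average, did not pass the line test (edgeR, adjusted p = 0.745).

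GADD45A, a growth arrest gene, averaged 89.5 CPM in OCILY1, 37.6 CPM in SUDHL4, 16 CPM in PFEIFFER, 8.26 CPM in TOLEDO and 3.68 CPM in WSUDLCL2. CDKN1A, which encodes the CDK inhibitor p21, averaged 7.01 to 15.6 CPM with overlapping libraries (edgeR line factor, adjusted p = 0.00348).

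Regulators of apoptosis differed by line. BCL2, the anti-apoptotic gene joined to the immunoglobulin locus in follicular lymphoma, had 100.2, 97.2 and 102 CPM in PFEIFFER, against 219 to 655 CPM in the 12 others (log2 difference -2.0, SE 0.14). OCILY1 and TOLEDO had the highest means, 604 ± 50.8 and 544 ± 36.6 CPM, and overlapped. BCL2L1, which encodes BCL-XL, averaged 117 ± 49.6 CPM in PFEIFFER, 79.3 ± 4.31 CPM in TOLEDO and 30.3 to 32.8 CPM in the other 3 lines. MCL1 averaged 200.3 CPM in OCILY1 and 450.1 CPM in PFEIFFER, its lowest and highest lines. CFLAR, an inhibitor of caspase-8, averaged 199.5 CPM in PFEIFFER, 59.6 CPM in OCILY1 and 10.0 to 19.9 CPM in the others. Past the limit, 5 of 10 anti-apoptotic genes were higher and 1 lower in PFEIFFER, where 17.5% of all genes were higher and 7.08% lower. Of 22 pro-apoptotic genes, 5 were higher and 0 lower in OCILY1, where 7.80% and 5.15% of all genes were, and 3 and 4 in PFEIFFER, where 17.5% and 7.08% of all genes were. HRK, a BH3-only protein, averaged 75.4 CPM in TOLEDO and 0.669 CPM in WSUDLCL2, and in OCILY1 it had 16.7, 65.5 and 68.8 CPM.

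Cell cycle genes had few calls past the limit. MYC, the driver of growth, averaged 202 ± 74.8 CPM in PFEIFFER and 462 ± 105 CPM in SUDHL4, its lowest and highest lines, and was called in no line past the limit. Of 25 G2/M genes, 17 differed between lines, a smaller share than the 90.3% of all genes. Of these 17, the CCNB1 line factor, the CENPE line factor, the HMMR line factor and the BUB1B line factor missed the threshold without the replicate block, at edgeR adjusted p of 0.0706, 0.147, 0.184 and 0.193. Past the limit were CENPF and BUB1, both of the kinetochore and both in TOLEDO, where 11.2% of all genes were higher. CENPF had 983, 928 and 1094 CPM in TOLEDO, against 128 to 334 CPM in the 12 others, which overlapped one another. MKI67, the proliferation marker, averaged 1024 ± 56.3 CPM in TOLEDO and 518 to 809.5 CPM in the other lines. Of 25 genes of G1/S and replication, E2F2 and UHRF1 were higher in TOLEDO, E2F2 and CCNE2 lower in PFEIFFER, and none passed in the other 3 lines, where 11.2% of all genes were higher in TOLEDO and 7.08% lower in PFEIFFER. Outside these lists CCND3, cyclin D3, averaged 228 CPM in TOLEDO and 29.9 CPM in OCILY1.

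The HDAC genes, targets of the study's drugs, had a median distance of 1.96 between line means over 11 genes. HDAC1 (chromosome 1, 32292086 to 32333635) had 172, 162 and 167 CPM in TOLEDO, against 424 to 793 CPM in the 12 others (log2 difference -1.8, SE 0.10, past the limit). HDAC2 averaged 79.4 ± 8.98 CPM in PFEIFFER and 215 ± 9.73 CPM in TOLEDO, its lowest and highest lines, and 156 to 179 CPM in the other lines, which overlapped. HDAC3 averaged 57.5 to 106 CPM. HDAC6, the tubulin deacetylase, averaged 69.2 ± 5.86 CPM in TOLEDO and 24.8 to 35.9 CPM in the others. HDAC4, a class IIa enzyme, averaged 23.2 CPM in TOLEDO and 1.94 to 7.26 CPM elsewhere. HDAC9, of the same class (chromosome 7, 18086949 to 19002416), had no count in PFEIFFER and 16.8 to 61.4 CPM in the 12 others. HDAC11 averaged 3.6 CPM in PFEIFFER and 0.155 to 0.659 CPM in the other 4 lines. Past the limit, 2 HDAC genes were higher and 2 lower in TOLEDO, 1 and 1 in OCILY1 and in PFEIFFER, 1 and 0 in WSUDLCL2 and none in SUDHL4. These are counts of 1 or 2 among 11 genes, and the shares of all genes were 11.2% and 8.92% in TOLEDO, 7.80% and 5.15% in OCILY1, 17.5% and 7.08% in PFEIFFER and 7.43% and 3.61% in WSUDLCL2. HDAC9 was called higher in OCILY1, TOLEDO and WSUDLCL2, each set against a mean that includes the PFEIFFER libraries. Among acetyltransferases, EP300 averaged 159 to 190.2 CPM and did not pass the line test (edgeR, adjusted p = 0.593), and the coactivator NCOA1 averaged 227 CPM in PFEIFFER against 15.9 to 73.9 CPM in the others. EZH2, the methyltransferase of Polycomb complex PRC2, averaged 136 to 219 CPM, while DNMT3B, a DNA methyltransferase, averaged 55.5 CPM in TOLEDO and 1.12 CPM in WSUDLCL2.

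Drug transport and metabolism genes were missing from some lines. ABCC5 had no count in WSUDLCL2, as given above, and 21.2 to 115 CPM in the 12 other libraries. ABCB1, the P-glycoprotein pump, had 8.23, 5.45 and 4.58 CPM in OCILY1 and 3.55, 4.13 and 4.58 CPM in TOLEDO. It had 1 count in SUDHL4 and none in PFEIFFER or WSUDLCL2. UGT2B7, a glucuronosyltransferase with near-identical relatives, averaged 46.0 CPM in PFEIFFER and had no count in the other 12 libraries. Of 13 genes tested in this list, 7 were higher and 0 lower in PFEIFFER and 1 higher and 3 lower in SUDHL4, where 17.5% and 7.08% of all genes were in PFEIFFER and 7.15% and 5.93% in SUDHL4, so that the single higher gene in SUDHL4 is near its share.

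NF-kB genes were most often higher in PFEIFFER, where 9 of 19 were higher and 1 lower, against 2 and 3 in TOLEDO, 2 and 0 in WSUDLCL2, 0 and 3 in SUDHL4 and 0 and 5 in OCILY1. Of all genes 17.5% were higher and 7.08% lower in PFEIFFER, 11.2% and 8.92% in TOLEDO, and 7.43% and 3.61% in WSUDLCL2. In SUDHL4 5.93% were lower, and in OCILY1 5.15%. The higher counts in TOLEDO and WSUDLCL2 and the 1 lower in PFEIFFER are thus near their shares. REL, an NF-kB subunit, had 693, 778 and 843 CPM in PFEIFFER, 17.9, 14.9 and 16.8 CPM in TOLEDO and 50.2 to 125 CPM in the other 3 lines. PFEIFFER and TOLEDO, both high in IRF4, lay at opposite ends for REL. TRAF1, an adaptor of TNF receptors, averaged 231 ± 48.1 CPM in PFEIFFER and 3.07 CPM in TOLEDO. NFKBIZ, an atypical NF-kB inhibitor, averaged 129.7 CPM in PFEIFFER and 0.814 CPM in SUDHL4. Of 18 JAK-STAT genes, 7 were higher and 1 lower in PFEIFFER, beside the same shares. The cytokine receptor IL10RA averaged 402 ± 6.75 CPM there and 4.65 to 10.4 CPM in the other lines, and IL13RA1 97.1 ± 25.2 CPM against at most 0.288 CPM. Interferon-stimulated MX1 averaged 15.4 to 70.8 CPM in OCILY1, PFEIFFER and TOLEDO and at most 0.306 CPM in SUDHL4 and WSUDLCL2. MX2 showed the same split, at 70.1 to 126 CPM against at most 0.182 CPM. CCR7, which guides cells into lymph nodes, averaged 100.5 CPM in TOLEDO and 0.2 to 9.7 CPM in the others.

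Most markers of other cell types did not pass the filter on low counts. Of 15 T-cell genes 5 were tested. Beside CD8A, PFEIFFER averaged 25.5 CPM of the kinase ZAP70 and 5.69 CPM of CD8B, with 30 counts of CD3D and 1 of CD3E over its 3 libraries and 0 to 0.137 CPM of the receptor constant gene TRAC. TRAC averaged 33.1 CPM in OCILY1 and 69.9 CPM in WSUDLCL2. The kinase LCK averaged 99.8 to 133 CPM in OCILY1, SUDHL4 and WSUDLCL2 and at most 6.14 CPM in PFEIFFER and TOLEDO. The summed level of the T-cell genes tested was 1119 to 1251 CPM in PFEIFFER and 2.93 to 3.85 CPM in TOLEDO, with the other lines between. Nearly all of the PFEIFFER sum was CD8A, at 1085 to 1207 CPM, while LCK and TRAC were lower there than in OCILY1, SUDHL4 and WSUDLCL2. Of 8 epithelial genes 3 were tested, and all 3 were called higher in PFEIFFER. Their summed level was 258 to 276.8 CPM in PFEIFFER and at most 0.789 CPM in the 12 libraries of the other tested lines. They passed the filter through PFEIFFER alone. This count was therefore fixed by the filter and is not comparable with the 17.5% of all genes higher in PFEIFFER. EPCAM, an epithelial adhesion molecule, had 247, 264 and 261 CPM there against 0 to 0.789 CPM in the 12 others, while the keratins KRT8 and KRT18 averaged 6.24 and 5.53 CPM. MAP2, a neuronal microtubule protein, averaged 99.8 CPM in SUDHL4 and at most 2.42 CPM elsewhere, and the collagen COL1A1 averaged 13.4 CPM in TOLEDO. Of 13 myeloid genes only SPI1, which B cells also use, was tested, and it averaged 21.9 to 71.0 CPM. PFEIFFER had 4 of 5 tested cancer-testis genes higher and 1 lower, where 17.5% of all genes were higher and 7.08% lower. CT45A1 stood at 24.2 CPM there, and neither CT45A1 nor SSX1 had a count in the 12 others. Both passed the filter through PFEIFFER alone and could only be called higher there. The 4 calls are therefore not read against those shares. Whether any of these markers stems from other cells was not tested.

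Other gene groups differed by smaller amounts. Over 28 ribosomal protein genes, 13 control genes and 6 sirtuin genes no member passed the 2-fold limit in any line. The line factor still called 28, 12 and 5 of them, against 90.3% of all genes. Line means were 2-fold apart for 5, 5 and 3 of these, against 69.7% of all genes. TBP, a general transcription factor, averaged 23.8 to 29.2 CPM in the 5 lines. ACTB averaged 8388 CPM in SUDHL4 and 2515 CPM in PFEIFFER.

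Genes that set a line apart also lay side by side on chromosomes. Runs of 25 neighbouring tested genes were ranked by their median log2 difference, and the extreme runs are given as a description, since they were picked for their values. In OCILY1 the lowest run was chr6:32184741-33129084 (GRCh38), from PBX2 to HLA-DPB2 across the MHC class II locus, at a median of -5.09 against 0.03 over all genes, with 13 of 25 genes lower past the limit. In PFEIFFER the highest was chr2:86213993-88947957, which holds CD8A and ends in the kappa locus, at 4.04 with 15 of 25 genes higher. The next, at 3.85 with 14 of 25 genes higher, was chrX:102769161-107927193. The lowest run in SUDHL4 overlapped it, at chrX:101655281-106679442, with a median of -4.11 and 9 of 25 genes lower. The lowest in TOLEDO, chr2:86603393-89222461, lay over the PFEIFFER run and holds IGKC, at -3.11 with 6 of 25 genes lower. Each line is set against a mean of the others, so a run high in PFEIFFER lowers the other lines there. These overlaps are therefore not separate results. Over whole chromosomes the medians furthest from 0 were chromosome 15 in PFEIFFER at 0.80 and chromosome X in TOLEDO at 0.74. With log2 CPM (prior count 2) taken within each solvent set, the medians of these runs were nearer to 0, at -3.24 to -2.38 for the OCILY1 run, 2.58 to 2.78 and 1.84 to 2.44 for the PFEIFFER runs, -1.95 to -1.82 for SUDHL4 and -1.59 to -1.45 for TOLEDO. Copy number was not measured.

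SUDHL6 had 223 genes, 1.53% of those tested, at least 2-fold above the 6 h libraries of all 5 other lines, and 197, or 1.36%, at least 2-fold below them. Counted the same way, the 6 h library of PFEIFFER had 1296 above and 421 below, and that of WSUDLCL2 155 and 202. With 1 library there is no replicate check. The tubulin gene TUBB2B had 70.5 CPM in SUDHL6 against 0 to 1.68 CPM in the 6 h libraries of the other lines. FGFR1, a fibroblast growth factor receptor, had 89.3 CPM against 0.81 to 3.08 CPM. ASZ1, a germline gene of the piRNA pathway, had 52.0 CPM against 0 to 1.91 CPM. AGPAT3, an enzyme of phospholipid synthesis, had 1.82 CPM in SUDHL6 against 53.2 to 114 CPM. The DNA repair gene MGMT had 0.456 CPM against 7.84 to 86.2 CPM, and PTPRJ, a receptor tyrosine phosphatase, 6.04 CPM against 60.6 to 423 CPM. The genes of this paragraph were the furthest outside the range of the other lines or were chosen among them after their values were seen.

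The same line differences were then looked for in the 20 pracinostat and vorinostat libraries of the 5 lines. The solvent contrasts held 11891 calls past the 2-fold limit, each a gene in a line and direction, and 11396 of them could be tested in the drug libraries. Of those, 11284 had the same sign and 7087, or 62.2%, were called past the limit again. Over all 14794 genes tested there, 15.1% were called higher and 5.55% lower in PFEIFFER, 8.25% and 7.25% in TOLEDO, 5.92% and 2.86% in OCILY1, 5.13% and 2.06% in WSUDLCL2, and 4.98% and 7.02% in SUDHL4. Of calls whose 3 solvent libraries lay outside the 12 others, 4214 of 5975 tested, or 70.5%, were called again. In the 6 h drug libraries alone the share of all calls was 63.3%, and in the 14 day ones 56.2%.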

How the data were processed

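RNA was sequenced from cells of 6 lymphoma lines. The deposited table holds whole-number counts per gene made by the authors, and a second deposited table holds log2 normalized values. Per the submitters' processing notes STAR, edgeR and hg38 were used, with no version, annotation release or strand setting stated there, so reads of overlapping antisense genes cannot be told apart. Of 18011 genes, 17859 were matched by ID to GENCODE 29 for coordinates, and 152 were not.

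Counts of the 15 DMSO libraries of the 5 lines were filtered (edgeR filterByExpr, minimum count 10 and total 15), scaled by TMM and fitted with edgeR 4.0.16 in R 4.3.3 (robust quasi-likelihood, line plus solvent set), with Benjamini-Hochberg adjustment over 14530 genes and a threshold of 0.05. Each line was set against the mean of the other 4, and calls were made against a 2-fold limit. Levels between lines used log2 CPM with a prior count of 2. Libraries of the same solvent set deviated together at 6 h (r 0.154 to 0.464 between lines) but not throughout for DMSOP (r -0.0683 to 0.204), and the set was kept as a block.

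The members and the 40 gene lists were chosen with earlier results of these data known. Named genes were the 5 highest and 3 lowest per line among those past the limit with all 3 libraries outside the 12 others, a mean of at least 20 CPM on the higher side, and the largest change. XIST, TSIX, Y-linked genes, immunoglobulin and T-cell receptor segments, pseudogenes and genes without a symbol were left out of naming. Up to 2 genes per list with the widest line means, and a fixed set of lymphoma and HDAC genes, were added, and other genes named were chosen after their values were seen. Tested on simulated data of 14530 genes with 200 changed, the line factor called 56% of 2-fold, 78% of 4-fold and 98% of 8-fold changes and 0.0907% of unchanged genes, and the line contrasts past the 2-fold limit called 0%, 60% and 96% of these changes. The simulation held few changed genes and no solvent set difference, while 90.3% of genes differed in the data, so these rates may not hold for this fit. Alternatives used DESeq2 1.42.0, limma 3.58.1, other scalings and filters, no block, thinned counts, and libraries or lines left out. A library titled SUDHL4 with vorinostat had no column of counts and was not analysed here. The values of a few genes are not reported here.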

Additional observations from a re-analysis of the deposited data

How the results depend on the processing

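The number of genes called by the line factor was 13124 and lay between 10796, with a filter of 5 CPM in 3 libraries, and 14973, with no filter on low counts. It was 12494 with no replicate block, 12764 with DESeq2, 12977 with limma on the deposited normalized values, 10944 with libraries thinned to equal totals, an alternative chosen after seeing the data, and 13099 to 13606 leaving out 1 library at a time. Among the counts of calls, that limma fit alone moved 2 by over 1.5 times, to 1423 genes lower in SUDHL4 and 866 lower in WSUDLCL2, against 862 and 524, and the cause was not tested. No single gene or count recomputed changed direction, but in that limma fit lower genes outnumbered higher ones in OCILY1, SUDHL4, TOLEDO and WSUDLCL2, where higher ones were the majority in the counts. With DESeq2, KCNJ16, AGR2, IGHD, CA8, PDZRN4, LINC01781 and TDRD1 missed the 2-fold limit at adjusted p of 0.0688 to 0.155, and the other alternatives that could be computed kept these 7 genes past it. With thinned libraries the CDKN1A line factor had an adjusted p of 0.0535 in edgeR. With DESeq2 the UGT2B7 line factor, the CT45A1 line factor and the KRT18 line factor had adjusted p of 0.0522, 0.0784 and 0.191. The extreme chromosome runs depend on their length: with 50 genes the lowest run in OCILY1 lay on chromosome 10, at -1.03, and the runs over MHC class II in OCILY1 and over CD8A in PFEIFFER were no longer among the 3 most extreme of their side. SUDHL4 has the lowest depth, and differences under its floor of 0.957 CPM at 6 h could not be seen.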

Other observations

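Genes of immunoglobulin gene rearrangement and of the pre-B receptor stood apart in TOLEDO, chosen here after their values were seen. RAG1, a subunit of the V(D)J recombinase, had 236, 261 and 289 CPM in TOLEDO, against 0 to 1.14 CPM in the 12 libraries of the other lines. RAG2, its partner, had 50.9, 52 and 53.6 CPM in TOLEDO, against 0 to 0.254 CPM in the 12 others. VPREB1, which pairs with IGLL1 in the surrogate light chain, had at least 84.7 CPM in every TOLEDO library and 7.85, 9.27 and 1.9 CPM in WSUDLCL2, the next highest line. DNTT, the template-free polymerase of V(D)J joining, was lower, at 1.92, 10.4 and 7.74 CPM in TOLEDO, against 0 to 0.146 CPM in the 12 others. The 3 TOLEDO libraries lay above the 12 others for RAG1, RAG2, VPREB1 and DNTT.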
